A study of Homo sapiens with 6 samples.

Results

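miR-193b and miR-365a are processed from 2 hairpins of one noncoding host transcript, and miR-365b is the near copy of miR-365a elsewhere in the genome. They were followed in small RNA libraries of extracellular vesicles (exosomes) shed by MHCC97H, a human hepatoma line of high metastatic potential. All rows of the deposited miRNA table that carry one of these 3 names were taken, which gave 5 of 1007 rows: hsa-miR-365a-5p, hsa-miR-193b-5p, hsa-miR-365b-5p, hsa-miR-193b-3p, and 1 row shared by hsa-miR-365a-3p and hsa-miR-365b-3p (the human prefix is left out from here on). The set was chosen by measured values, namely the counts of the chromosome 16 5p arms, which were lower in xanthatin than in control libraries. All differences between the groups in these 5 rows, and in ratios built from them, are therefore a description and carry no test.

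The xanthatin group had 3 libraries, from the supernatant of cells exposed for 24 h to 4 µmol/L of xanthatin, a lactone that cocklebur plants make. The control group had 3 libraries from the same line, labelled only as control or, in their titles, as Blank. In both groups the cells grew in medium with ordinary and exosome-depleted fetal bovine serum, and DMSO, the solvent, was at 0.5% in all experiments per the labels' protocols. Nothing in the labels says that the 3 libraries of a group came from separate cultures, so their spread may be technical. Xanthatin libraries held 204520 to 267956 miRNA counts and control libraries 63965 to 80088, so 1 count stands for a larger share of a control library. All 5 hepatocyte markers looked for (miR-122, miR-192, miR-194, miR-148a and miR-483) were read. Because libraries were bulk, fewer vesicles that carry a miRNA and fewer copies per vesicle cannot be told apart.

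A miRNA hairpin is cut by Drosha and Dicer into a short duplex of a 5p and a 3p arm. One arm is loaded into an Argonaute protein and guides it to transcripts that match its seed (bases 2 to 8), while the other arm is usually degraded. For both hairpins the 3p arm is the one best known as a repressor: miR-193b-3p acts on transcripts of cyclin D1, the protease urokinase and the survival factor MCL1, and miR-365-3p on those of cyclin D1 and BCL2. In mouse the pair is also known from the differentiation of brown fat cells.

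In GENCODE (GRCh38), MIR193B lies on chromosome 16 from 14303967 to 14304049 and MIR365A from 14309285 to 14309371, both on the plus strand and both in introns of the noncoding host gene MIR193BHG (14301389 to 14331067). Their starts are 5318 bases apart. The second copy of the pair is on chromosome 17, where MIR193A (31559996 to 31560083) lies 15415 bases before MIR365B (31575411 to 31575521). MIR365B shares 11 bases with an exon of the noncoding gene AC003101.1, and MIR193A has no annotated host. The RefSeq hairpins (GRCh38.p14) of the chromosome 16 pair are shown with both arms in capitals, since the results turn on which arm was read.
MIR193B: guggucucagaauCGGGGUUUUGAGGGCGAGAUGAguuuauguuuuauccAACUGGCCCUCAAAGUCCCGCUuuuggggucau
MIR365A: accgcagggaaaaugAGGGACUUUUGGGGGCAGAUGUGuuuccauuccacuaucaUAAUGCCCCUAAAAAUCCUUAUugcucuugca

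The mature arms of the pair and of its chromosome 17 copy follow from RefSeq, with the seed in capitals, to show which arms can share targets and which can share reads.
miR-365a-5p: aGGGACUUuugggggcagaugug
miR-365b-5p: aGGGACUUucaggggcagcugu
miR-193b-5p: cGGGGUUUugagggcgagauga
miR-193a-5p: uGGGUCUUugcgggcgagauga
miR-365a-3p and miR-365b-3p: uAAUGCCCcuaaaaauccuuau
miR-193b-3p: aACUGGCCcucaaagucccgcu
miR-193a-3p: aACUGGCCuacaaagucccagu
The 3p arms of miR-365a and miR-365b are the same 22 bases, so the table could not separate them. Their 5p arms share a seed and differ at 3 positions counted from the 5′ end (U10C, G11A and A19C, miR-365a-5p first) and by 1 base in length, so reads may have been split between those rows by the counting. The 3p arms of miR-193b and miR-193a share a seed, while their 5p arms do not: they differ at C1U, G5U, U6C and A11C (miR-193b-5p first). No other miRNA name of the table with a RefSeq sequence had any of these seeds.

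Nearly all reads of the set in control vesicles came from 5p arms, and these were far scarcer after xanthatin. Together the 5 rows took 0.138% ± 0.026 of the miRNA counts in xanthatin libraries, against 2.24% ± 0.24 in control libraries (SD, n = 3 each). Their summed counts were 328, 437 and 229 in xanthatin libraries and 1941, 1630 and 1262 in control libraries. Even the raw counts were lower in every xanthatin library, although these libraries held more miRNA counts.

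miR-365a-5p, the more abundant 5p arm, had 138, 256 and 157 counts in xanthatin libraries, against 1390, 1267 and 890 in control libraries. Every xanthatin library was below every control library. Scaled by TMM, a normalisation that trims extreme sequences before it compares library sizes, these were 653, 1064 and 872 CPM (counts relative to the scaled miRNA total) in xanthatin and 16088, 16008 and 11843 CPM in control libraries. Means were 863 ± 206 CPM and 14646 ± 2428 CPM (SD, n = 3 each), 16.9-fold lower after xanthatin (log2 fold change -4.08, SE 0.25). In the authors' own scale, TPM, the values were 4.78, 8.04 and 5.84 in xanthatin and 114.6, 127.7 and 94.6 in control libraries. miR-365a-5p ranked 86, 67 and 81 by count in xanthatin libraries and 14, 13 and 18 in control libraries.

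miR-193b-5p, from the neighbouring hairpin, had 136, 99 and 42 counts in xanthatin libraries, against 499, 340 and 369 in control libraries. These correspond to 644, 412 and 233 CPM in xanthatin and 5775, 4296 and 4910 CPM in control libraries. The groups again did not overlap. Means were 430 ± 206 CPM in xanthatin and 4994 ± 743 CPM in control libraries (SD, n = 3 each), 11.6-fold lower after xanthatin (log2 fold change -3.53, SE 0.41). Its rank by count was 87, 105 and 145 in xanthatin libraries and 25, 34 and 30 in control libraries.

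The proportion of the 2 arms to each other was also read. There were 1.01, 2.59 and 3.74 miR-365a-5p reads per miR-193b-5p read in xanthatin libraries, against 2.79, 3.73 and 2.41 in control libraries. The groups overlapped in this ratio (mean 2.45 ± 1.37 and 2.97 ± 0.68, SD, n = 3 each). Xanthatin replicate 1, where both arms were about equal, lay below all other libraries.

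miR-365b-5p, the chromosome 17 copy, was much rarer, at 17, 29 and 5 counts in xanthatin and 50, 20 and 2 in control libraries. Its CPM were 80.5, 121 and 27.8 in xanthatin and 579, 253 and 26.6 in control libraries, so the groups overlapped. The log2 fold change was -1.89 (SE 1.10), and -0.90 (SE 1.23) without control replicate 1, which held most of the control counts. Among all reads of the 2 miR-365 5p rows, miR-365b-5p took 8.08% ± 4.34 in xanthatin and 1.75% ± 1.63 in control libraries (SD, n = 3 each).

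The 3p arms were near or under the limit of detection in control libraries, and their pooled rates were higher after xanthatin. The row of miR-365a-3p and miR-365b-3p had 36, 15 and 11 counts in xanthatin libraries and 0 in every control library. A count of 0 allows a share of up to 0.00375%, 0.00427% and 0.00469% in control replicates 1, 2 and 3 (3 counts, for counting error only). With the control group placed at 3 counts over its libraries (12.5 CPM), the row was at least 7.87-fold higher in xanthatin libraries, where it stood at 97.96 ± 62.8 CPM (SD, n = 3). That bound was at least 4.94-fold without control replicate 1 and at least 5.04-fold without xanthatin replicate 1. Leaving out a control library changes only the scaled depths beside the fixed 3 counts, so 4.94 is no check of the control values. At the xanthatin rate, 23.6 counts would have fallen in the control libraries together, against the 0 that were read. That number leaves out the spread between libraries. In the edgeR fit with no count filter, which allows for that spread, the log2 fold change was 6.95 with a wide SE of 2.51. With 0 control counts no finite fold change can be estimated, so the size of 6.95 depends on how the fit treats 0. The pattern was not particular to this row. Summed control counts were also 0 for let-7b-3p (34 in xanthatin), miR-30d-3p (27), miR-21-3p (17) and miR-106b-5p (45), among others. The reverse held for miR-23a-5p (27 in control, 0 in xanthatin) and miR-642a-5p (11 and 0).

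miR-193b-3p had 1, 38 and 14 counts in xanthatin libraries, against 2, 3 and 1 in control libraries. This equals 4.73, 158 and 77.8 CPM in xanthatin and 23.1, 37.9 and 13.3 CPM in control libraries. Xanthatin replicate 1 was below all control libraries and the other 2 xanthatin libraries were above them. The ratio of pooled rates was 3.37 (exact 95% binomial interval 1.45 to 9.58, counting error only), but 1.56 without xanthatin replicate 2.

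**Figure D1:**
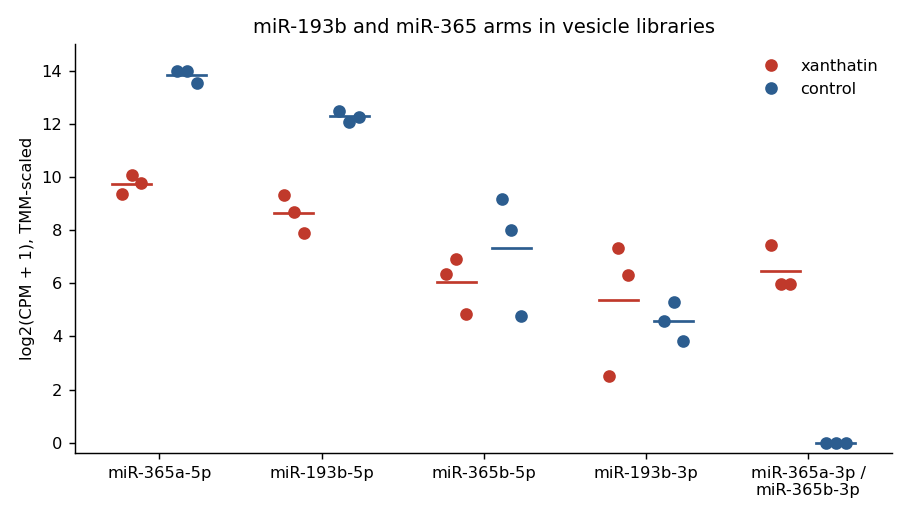
TMM-scaled log2(CPM + 1) of each of the 5 rows in each library, xanthatin left and control right, with a bar at the mean of the plotted log2 values. The xanthatin points of miR-365a-5p and miR-193b-5p all lie below the control points, those of miR-365b-5p and miR-193b-3p overlap with control, and the shared miR-365 3p row is at 0 in all 3 control libraries.

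Ordered by mean CPM, and with mature lengths of 22 or 23 bases so that length plays little part, xanthatin libraries held miR-365a-5p (863), miR-193b-5p (430), the miR-365 3p row (97.96), miR-193b-3p (80.2) and miR-365b-5p (76.3). The last 3 levels overlapped one another, and the lowest miR-365a-5p library (653) lay close to the highest miR-193b-5p library (644). In control libraries the order was miR-365a-5p (14646), miR-193b-5p (4994), miR-365b-5p (286), miR-193b-3p (24.8) and the miR-365 3p row (0). There miR-365b-5p overlapped miR-193b-3p through control replicate 3, and miR-193b-3p, at 1 to 3 counts a library, could not be told from the row at 0. The 2 most abundant arms were separate from each other and from the rest.

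Of the 5 rows, 3 passed the count filter of the whole-table fit with edgeR's quasi-likelihood test, all of them 5p arms. The other 2, both 3p rows, had too few counts. Of the 3, miR-365a-5p and miR-193b-5p were among the 43 of 254 tested miRNAs called lower after xanthatin (16.9%) at an adjusted p under 0.05, and no reading is made of this, since the same contrast chose them. Without a test, 75 of the 254 (29.5%) had all xanthatin libraries below all control libraries in CPM, these 2 arms included, and 64 (25.2%) had all above. Higher calls numbered 34 (13.4%), which makes 77 calls in either direction (30.3%). Without TMM, on library totals alone, the calls were 60 lower and 22 higher. By log2 fold change miR-365a-5p was the 12th lowest and miR-193b-5p the 16th lowest of the 254, and miR-365b-5p was the 39th.

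The comparison of arms needs no scaling between libraries, because both arms come from the same library. Of the reads of the 5 rows, 3p arms made up 11.4% ± 0.62 in xanthatin libraries and 0.122% ± 0.055 in control libraries (SD, n = 3 each). In counts these were 37 of 328, 53 of 437 and 25 of 229 reads in xanthatin libraries, against 2 of 1941, 3 of 1630 and 1 of 1262 in control libraries. The 3 xanthatin libraries were close to one another in this share, although the hairpin that supplied the 3p reads differed: replicate 1 had nearly all of them from miR-365 and replicate 2 mostly from miR-193b. Each 3p row by itself varied widely, so the closeness of the sums is not read as reproducibility.

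For the miR-365a hairpin, 551 5p and 62 3p reads gave 8.89 5p reads per 3p read in xanthatin libraries, against at least 1182 in control libraries (3547 5p reads and no 3p read, placed at 3 counts over the group). With a pseudocount of 0.5 on each arm, log2 of 5p over 3p was 1.92, 4.05 and 3.78 in xanthatin and 11.4, 11.3 and 10.8 in control libraries. The difference of means was -7.93, and it was -7.27 without xanthatin replicate 1. It depends on the pseudocount, since the control 3p count is 0, and was -6.97 with 1 count added.

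For the miR-193b hairpin, there were 5.23 5p reads per 3p read in xanthatin libraries (277 and 53) and 201 in control libraries (1208 and 6). Log2 of 5p over 3p was 6.51, 1.37 and 1.55 in xanthatin and 7.64, 6.60 and 7.94 in control libraries. Xanthatin replicate 1 thus lay just under the lowest control library, and the other 2 lay well below. The difference of means was -4.25. It was -5.94 without xanthatin replicate 1, -3.37 without replicate 2 and -3.46 without replicate 3.

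The miR-365b hairpin, set against the same shared 3p row, had 0.823 5p reads per 3p read in xanthatin libraries (51 and 62), against at least 24.0 in control libraries (72 and 0). The log2 difference was -5.18, and it ran between -4.24 without control replicate 1 and -6.41 without control replicate 3. This value is not independent of that for miR-365a, since both use the same 3p counts.

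**Figure D2:**
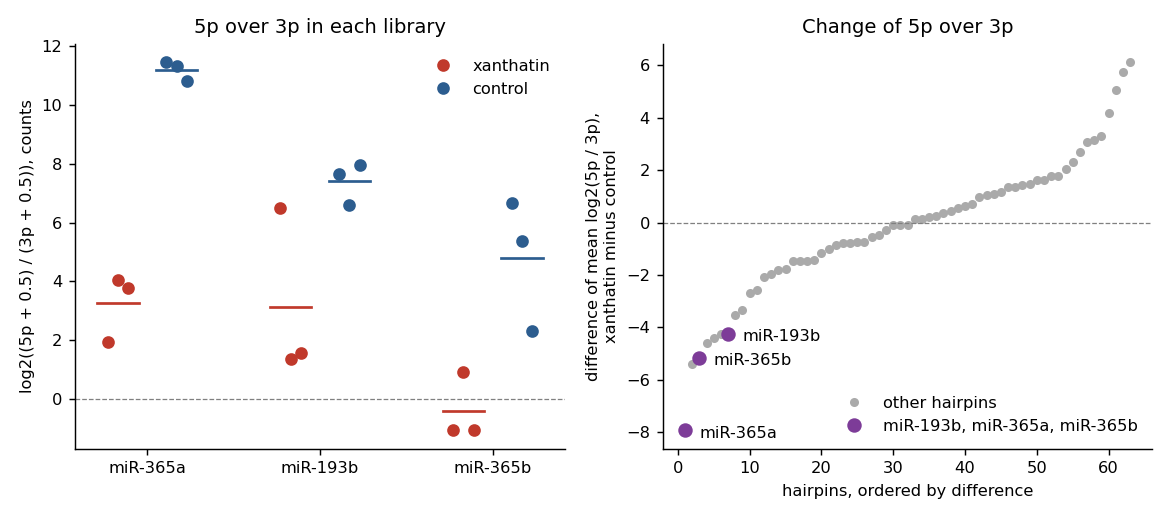
Left, log2 of (5p + 0.5) over (3p + 0.5) counts in each library for the 3 hairpins, xanthatin left and control right, with a bar at the mean. Right, the difference of group means, xanthatin minus control, for 63 hairpins in rising order. miR-365a (-7.93), miR-365b (-5.18) and miR-193b (-4.25) lie at the low end, and the control values of both miR-365 hairpins rest on 0 3p counts.

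Among 63 hairpins with both arms in the table and at least 50 counts in all, miR-365a had the lowest difference in 5p over 3p, miR-365b the 3rd lowest and miR-193b the 7th lowest. These ranks are no support. They follow in part from the choice of miR-365a-5p and miR-193b-5p as lower (log2 fold changes -4.08 and -3.53), and miR-365b reuses the 3p counts of miR-365a. The median hairpin differed by -0.09 (quartiles -1.48 and 1.39), so the arms of most hairpins kept closer to their control proportion. In 13 hairpins (20.6%), the 3 named included, all xanthatin libraries were below all control libraries, and in 10 (15.9%) all were above. Besides the miR-365 hairpins, the 4 lowest held miR-23a (-5.42) and miR-221 (-4.61), and in both the 3p arm was the main arm in both groups. The 4 highest were miR-149 (6.11), miR-10401 (5.75), miR-194 (5.05) and miR-191 (4.17, with overlapping groups). The preference of miR-365a for 5p in control libraries was the 2nd highest of the 63 and that of miR-193b the 7th, against a median log2 of -0.84 (a 3p preference). With a control 3p count of 0, the rank of miR-365a is set by its 5p count and the pseudocount. Over all tested known names, 14 of 89 5p names were called lower and 17 higher (median log2 fold change -0.04), and 14 of 68 3p names were called lower and 3 higher (-0.45).

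miR-193a, the chromosome 17 relative of miR-193b, had a 5p row only. miR-193a-5p had 184, 125 and 182 counts in xanthatin and 17, 68 and 48 in control libraries. At 801 ± 253 CPM in xanthatin and 565 ± 337 CPM in control libraries (SD, n = 3 each), it overlapped between groups and did not pass (log2 fold change 0.50, SE 0.59, edgeR adjusted p = 0.564). Its 5p arm matches that of miR-193b at 18 of 22 positions, the last 11 bases included. In each xanthatin library its count stood above that of miR-193b-5p, and in each control library below it.

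Other miRNAs of chromosome 16 were sparse. Of 14 rows outside the set, 3 passed the count filter, and edgeR called 0 of them, against 16.9% called lower and 13.4% called higher over all tested miRNAs. At an unadjusted p under 0.05 there was 1, in the higher direction, which DESeq2 also called and limma-voom did not. Of the 3 rows, miR-328-3p had 103, 66 and 40 counts in xanthatin and 1, 1 and 10 in control libraries (log2 fold change 2.64, SE 1.05, edgeR adjusted p = 0.0996). All its xanthatin libraries were above all control libraries in CPM, as in 25.2% of all tested miRNAs. miR-484 was at 186 ± 70.4 CPM in xanthatin and 320 ± 85.6 CPM in control libraries (SD, n = 3 each; log2 fold change -0.78, SE 0.51), and miR-140-3p was at -0.57 (SE 1.37). They lie far from MIR193B, at 1339 kb (miR-484), 52898 kb (miR-328-3p) and 55629 kb (miR-140-3p), so they do not describe its neighbourhood.

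The nearest profiles to the 2 chromosome 16 5p arms were sought among tested known miRNAs, by the Euclidean distance of log2(CPM + 1) centred over the 6 libraries. The difference between groups dominates this measure, so it ranks miRNAs that were lower to a like degree. miR-365a-5p was nearest to miR-486-5p, a miRNA of red blood cells (distance 1.34), then to miR-143-3p of smooth muscle and stroma (1.47), miR-193b-5p (1.54), miR-122-5p, the main hepatocyte miRNA (1.78), and miR-92a-1-5p (2.24). miR-193b-5p was nearest to miR-486-5p (1.004), then to miR-365a-5p (1.54), miR-99b-3p (1.64), miR-92a-1-5p (1.98) and miR-143-3p (2.05). miR-486-5p had 167, 139 and 115 counts in xanthatin libraries, against 949, 432 and 497 in control libraries (log2 fold change -3.52, SE 0.33). The host partner was 3rd nearest to one arm and 2nd nearest to the other.

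**Figure D3:**
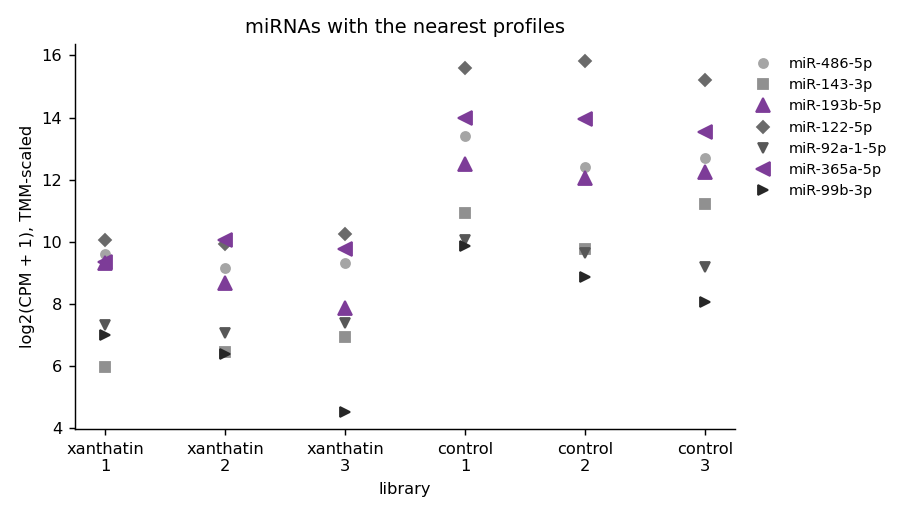
TMM-scaled log2(CPM + 1) in each of the 6 libraries, xanthatin left and control right, for miR-365a-5p and miR-193b-5p (large triangles) and the 5 other miRNAs named as nearest to either. All 7 lie lower in the xanthatin libraries, while their levels differ widely.

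Because miR-486-5p and miR-143-3p mark other tissues, whole marker lists were read beside the pair. Blood and serum markers (5 of 6 read, miR-144 at 0) held 0.0556% to 0.0705% of counts in xanthatin libraries and 0.619% to 1.19% in control libraries. Nearly all of this share was miR-486-5p in every library, so this list adds little to that row. Stromal and endothelial markers (7 of 7 read) held 0.0616% to 0.0885% in xanthatin and 0.413% to 0.566% in control libraries. Hepatocyte markers (5 of 5 read) held 2.91% to 3.59% in xanthatin and 11.5% to 14.6% in control libraries. The summed share of each list was lower in xanthatin libraries, but the members did not all go the same way. Of 7 hepatocyte rows tested with edgeR, 3 were called lower (miR-122-5p, miR-148a-3p and miR-483-5p) and 1 higher, miR-192-5p (log2 fold change 1.22, SE 0.34, adjusted p = 0.0399). miR-194-5p was at 1.67 (SE 1.22) and did not pass. The only blood and serum row tested, miR-486-5p, was called lower, as were 2 of 3 stromal and endothelial rows, miR-143-3p and miR-10b-5p. Over all tested miRNAs, 16.9% were called lower and 13.4% higher, and the lists hold too few rows to be compared with these shares. The part of these lists in the result was not tested.

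The 5p arms also share a base composition that the choice of rows did not use. G made up 47.8% of miR-365a-5p, 50% of miR-193b-5p and 40.9% of miR-365b-5p, but 18.2% of miR-193b-3p and 4.55% of the miR-365 3p arm. The median of 160 tested known miRNAs with a RefSeq sequence was 29.6%, and miR-193b-5p ranked 11th and miR-365a-5p 13th from the most G-rich. All 3 5p members hold GGGG, as did 21 of the 160 (13.1%) and 14.4% of the 444 known names with a sequence. None of the 5 rows holds GGAG (13.1% of the 160) or GGCU (15.6%), short sequences known from vesicle sorting; only the mature strand was searched, and GGAG can overlap the end of a GGGG.

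Across the 160 miRNAs, the share of G and the log2 fold change had a Pearson r of -0.25 (-0.22 without the 3 members), which is given as a description: miRNAs are not independent, all values come from the same 6 libraries, and base composition also affects ligation and amplification. Over all 444 known names with a sequence, with fold changes taken from mean CPM plus 1, r was -0.11. Of 37 miRNAs with at least 40% G, the 3 members included, 9 were called lower and 3 higher, with a median log2 fold change of -1.04. The 9 include miR-365a-5p and miR-193b-5p, which were chosen as lower, so their calls add no support. Of the 123 with less G, 18 were called lower and 17 higher, with a median of -0.02. The median share of G was nearly the same in the 27 called lower (30.4%) and the 20 called higher (30.5%), and 28.6% in the 113 not called. GGGG was held by 4, 0 and 17 of these, in that order, and the 4 include miR-365a-5p and miR-193b-5p, which were chosen as lower. Of the 5 most G-rich, miR-1275 (58.8% G) was called lower (log2 fold change -2.25, SE 0.37, edgeR adjusted p = 0.00535). The other 4 did not pass: miR-1228-5p (-1.07), miR-149-3p (-3.73), miR-197-5p (-1.93) and miR-663a (0.17). miR-193a-5p, at 45.5% G and with no GGGG, was not lower. The part of base composition in the result was not tested.

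**Figure D4:**
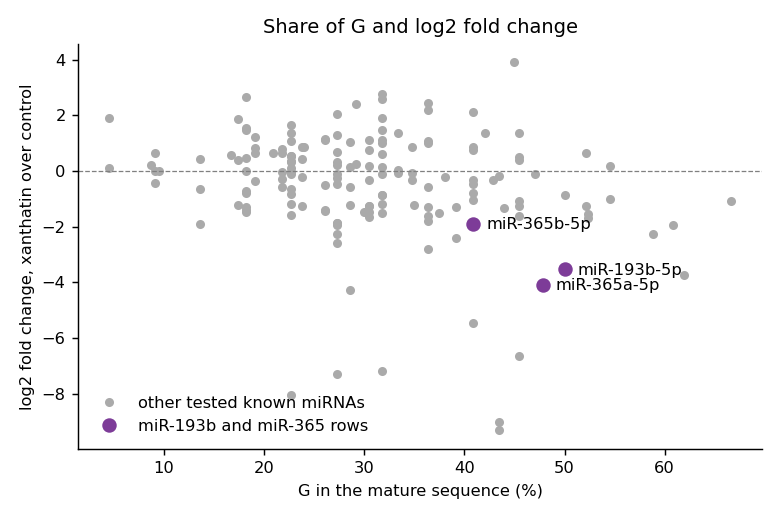
Share of G in the mature sequence (%) against the edgeR log2 fold change, xanthatin over control, for 160 tested known miRNAs, with miR-365a-5p, miR-193b-5p and miR-365b-5p in purple. The 3 lie at 40.9% G or more and at a log2 fold change of -1.89 or less, within a cloud whose correlation is weak (-0.25).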

How the data were processed

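Small RNA of vesicles was sequenced in 3 xanthatin and 3 control libraries, grouped by sample title. Per the file headers, the authors deposited a count and a TPM value per mature miRNA name and library. The deposited counts are whole numbers without normalisation. Each deposited TPM is its count over a total that is the same for every miRNA of the library, so length does not enter. The miRNA counts made up 0.76% to 0.84% of that total in xanthatin and 0.66% to 0.71% in control libraries, so TPM values are far below CPM. Per the submitters' processing notes the build was hg38; aligner, miRNA database and counting rules were not given in the sources used here.

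All 1007 rows were fitted with edgeR 4.0.16 (R 4.3.3): TMM scaling, the default count filter (minimum count 10), quasi-likelihood F test on group, and Benjamini-Hochberg adjustment over 254 tested rows (threshold 0.05). SEs were obtained from the fold change and its F statistic. The procedure was tested on simulated data. CPM use TMM-scaled library totals. Arm ratios use counts plus 0.5. Members and lists were chosen with earlier results of these data known. Named miRNAs were the members, miR-193a, the 5 nearest profiles to each chromosome 16 5p arm, the 4 lowest and 4 highest hairpins by arm ratio, the 5 most G-rich, and the 3 most abundant other miRNAs of chromosome 16. Sequences came from RefSeq (GRCh38.p14), which matched 160 of 178 tested known names, and gene positions from GENCODE (GRCh38, the same assembly as hg38). Reads carry no molecular identifiers, so intervals and floors cover counting error only. No pair of replicates held identical counts. DESeq2 1.42.0, limma 3.58.1 (voom), other scalings and filters, a replicate block, known names only and leaving out each library were alternatives.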

Additional observations from a re-analysis of the deposited data

How the results depend on the processing

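In all alternatives run, miR-365a-5p, miR-193b-5p and miR-365b-5p stayed lower after xanthatin, and the 3 hairpins kept a lower 5p over 3p. The log2 fold change of miR-365a-5p was -4.42 with library totals only, a scaling that moved the median of all tested miRNAs by -0.33. Without each library in turn it ran from -4.24 to -3.89, that of miR-193b-5p from -3.92 to -3.20, and that of miR-365b-5p from -2.36 to -0.90. The bound for the miR-365 3p row ran from 4.94 to 9.78 and the ratio of miR-193b-3p from 1.56 to 5.04. For that bound, leaving out a control library changes only the scaled depths, since the control is fixed at 3 counts. With 1 count added to each arm, the change of miR-365a in 5p over 3p was -6.97. The median change over all hairpins was 0.13 with at least 10 counts in every library (45 hairpins), and the cause was not tested. Among these, miR-365a was still the lowest and miR-193b the 5th lowest, ranks that follow in part from the choice of their 5p arms. Higher calls numbered 22 with library totals only, 60 with DESeq2, and 22 to 30 without each library in turn (lower calls 31 to 41). With known names only, where fewer rows were tested, 27 were lower and 22 higher.

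With a replicate block, 33 miRNAs were called lower and 21 higher, and the log2 fold changes were -4.10 for miR-365a-5p, -3.63 for miR-193b-5p and -1.37 for miR-365b-5p. The same-numbered libraries did not deviate together (r = 0.09, -0.08 and -0.14), so the numbers were not read as pairs. Depth limits the 3p rows, with 0 and 6 counts in the control group. With no count filter the log2 fold change was 6.95 (SE 2.51) for the miR-365 3p row and 1.95 (SE 1.86) for miR-193b-3p. The size of 6.95 depends on how the fit treats the 0 control counts.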
